A study of Mus musculus with 2 samples.

Results

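The miR-17-92 cluster is a run of 6 microRNA hairpins on mouse chromosome 14, and its members here were Mir17, Mir18, Mir19a, Mir20a, Mir19b-1 and Mir92-1. They were taken by gene symbol from the deposited count tables, in which all 6 were found among 1973 listed miRNA genes. The tables come from small RNA sequencing (fragments below 30 nt) of whole stomach from healthy mouse embryos of strain B6NCrl at embryonic day 15.5, both sexes together. Stomachs of 78 embryos were pooled for replicate 1 and of 62 other embryos for replicate 2. No treatment or genotype distinguishes the pools, so all comparisons are between genes or between the pools. Values are sense-strand counts and CPM, meaning counts scaled to a common total of sense-strand miRNA gene counts (5988677 in replicate 1 and 6675498 in replicate 2). The error of a mean is the SD over the 2 pools. Intervals within a library are 95% Wilson intervals, and they cover counting error only because reads are not independent molecules.

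The cluster is transcribed as one long primary RNA. The nuclear enzyme Drosha cuts each hairpin out of it, and Dicer then trims the hairpin to a short duplex of a 5p and a 3p arm, one of which is kept in Argonaute as the guide. Bases 2 to 8 of the guide, the seed, do most of the target recognition, so members with the same seed share many targets. The cluster is induced by MYC and E2F factors, is known for promoting proliferation and survival, and is required for normal growth of the embryo. Mouse has a related cluster on chromosome X (Mir106a to Mir363) and another within the Mcm7 gene on chromosome 5 (Mir106b, Mir93 and Mir25).

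The guide arms fall into 4 seed groups. They are printed here, from RefSeq for the same assembly (GRCm38, also called mm10), because the levels below are read by seed and by shared sequence. Each runs 5′ to 3′ with the seed in capitals.
miR-17-5p: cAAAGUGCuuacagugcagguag
miR-20a-5p: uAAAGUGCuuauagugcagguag
miR-18a-5p: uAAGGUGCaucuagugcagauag
miR-19a-3p: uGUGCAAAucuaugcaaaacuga
miR-19b-3p: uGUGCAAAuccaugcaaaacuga
miR-92a-3p: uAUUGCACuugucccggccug
Counted from 1 at the 5′ end, miR-17-5p and miR-20a-5p differ by C1U and C12U, both outside the seed. The seed of miR-18a-5p differs from theirs by the single change A4G. miR-19a-3p and miR-19b-3p differ only by U11C. The guides of Mir17, Mir18 and Mir20a lie on the 5p arm of their hairpins, and those of Mir19a, Mir19b-1 and Mir92-1 on the 3p arm. The deposited counts are per hairpin gene and do not tell the arms apart.

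All 6 hairpins lie within exon 2 of the 2 exons of the noncoding host gene Mir17hg (chromosome 14, 115042879 to 115046727, plus strand, GENCODE M21 on GRCm38). Mir17 comes first, from 115043671 to 115043754. Mir18 follows from 115043851 to 115043946, Mir19a from 115044000 to 115044081 and Mir20a from 115044157 to 115044263. Mir19b-1 lies from 115044305 to 115044391 and Mir92-1 from 115044427 to 115044506. The gaps between neighbours are, in transcript order, 96, 53, 75, 41 and 35 nt. The host transcript itself was not measured in these libraries of short fragments.

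Some facts of the libraries bear on every value below. Reads matching several places made up 25.5% and 27.0% of all reads in replicates 1 and 2 and belong to no gene in the tables, so hairpins whose mature sequence occurs elsewhere may have lost reads. No member fell under 10 counts in either library, and none had a count on the opposite strand. Stomach markers were present, with smooth muscle genes (Mir143 and Mir145a) at 178424 and 183398 CPM and epithelial genes (Mir200c, Mir429 and Mir141) at 34408 and 35294 CPM. The smooth muscle sum was mostly Mir143 (175503 and 181344 CPM). Mir145a went the other way, from 2921 CPM in replicate 1 to 2054 CPM in replicate 2. In whole tissue, fewer cells of a type and less RNA per cell cannot be told apart.

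The cluster held 3.74% of sense miRNA counts in replicate 1 (3.72 to 3.75) and 3.29% in replicate 2 (3.28 to 3.31), or 3.51% ± 0.314 (SD, n = 2). Its members were counted at very unequal levels. Mir17 led with 22791 CPM in replicate 1 and 20435 CPM in replicate 2, a mean of 21613 ± 1665 CPM, and ranked 10 and 12 among all listed genes. Mir17 encodes the founding member of its family, whose known targets include E2F1 and the cell cycle inhibitor p21. Mir20a, which shares that seed, stood at 8504 and 7073 CPM (7788 ± 1012), with ranks 25 and 28. In both libraries Mir17 was above Mir20a, by 1.48 ± 0.08 on the log2(CPM + 1) scale.

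Mir18, whose miRNA is known to repress members of the TGF-beta pathway, stood at 3363 and 2904 CPM (3134 ± 324). Mir92-1, whose miRNA targets integrin alpha 5 in endothelium, stood at 2631 and 2453 CPM (2542 ± 126). These neighbours in level were close. Mir18 exceeded Mir92-1 by 0.30 ± 0.08 in log2(CPM + 1). In CPM Mir18 was above Mir92-1 in both libraries. Here and below, differences per base of annotated hairpin are in log2 without the added 1 CPM. For Mir18 over Mir92-1 this difference was 0.09 in replicate 1 and -0.02 in replicate 2, within the spread of the pools. On that scale their order is not settled. The scale divides by the whole hairpin, although the fragments sequenced were below 30 nt. The hairpins span 80 to 107 nt. The other neighbours in level kept their order per base of hairpin in both libraries.

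The miR-19 hairpins were far below the rest. Mir19a had 312 counts in replicate 1 and 263 in replicate 2, or 52.1 CPM (46.6 to 58.2) and 39.4 CPM (34.9 to 44.5), with a mean of 45.7 ± 8.98. Mir19b-1 had 58 and 78 counts, or 9.68 CPM (7.49 to 12.5) and 11.7 CPM (9.36 to 14.6), with a mean of 10.7 ± 1.41. The step down from Mir92-1 to Mir19a was 5.78 ± 0.21 in log2(CPM + 1), the widest between neighbours in level. Mir19a in turn exceeded Mir19b-1 by 1.99 ± 0.45. Mir19a was lower and Mir19b-1 higher in replicate 2.

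**Figure D1:**
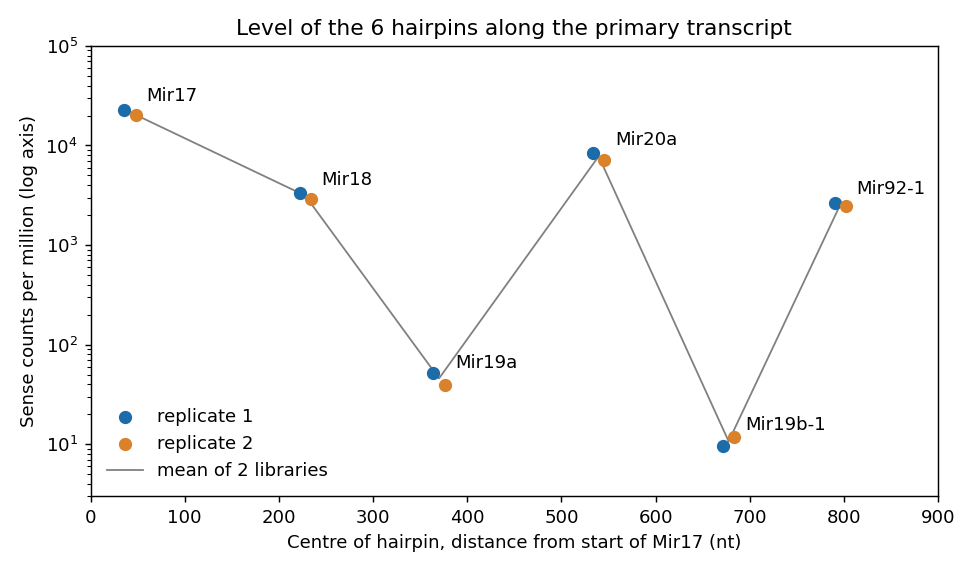
Sense CPM (log axis) of the 6 hairpins against the distance of each hairpin's centre from the start of Mir17, with 1 point per library (drawn slightly apart sideways) and a line through the means. The level falls from Mir17 to Mir19a, rises again at Mir20a, is lowest at Mir19b-1 and rises at Mir92-1, in both libraries.

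Level did not follow position along the transcript in one direction. From Mir17 to Mir18 it fell by 2.79 ± 0.04 in log2(CPM + 1), and from Mir18 to Mir19a by 6.08 ± 0.13. From Mir19a to the next hairpin, Mir20a, the level rose (-7.39 ± 0.09 as Mir19a minus Mir20a). From Mir20a to Mir19b-1 it fell by 9.38 ± 0.36, and Mir92-1 at the 3′ end was higher again (-7.77 ± 0.25 as Mir19b-1 minus Mir92-1). Every one of these steps had the same sign in both pools and exceeded the SD between them many times over. The low hairpins Mir19a and Mir19b-1 therefore alternate with high ones, and Mir20a lies between them only 75 nt after Mir19a and 41 nt before Mir19b-1.

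Within the cluster, the shares of Mir17, Mir20a, Mir18 and Mir92-1 were close in the 2 pools, and those of the miR-19 hairpins differed more in proportion. Mir17 held 61.0% of the cluster's counts in replicate 1 (60.8 to 61.2) and 62.1% in replicate 2 (61.9 to 62.3). Mir20a held 22.8% and 21.5%, Mir18 9.00% and 8.82%, and Mir92-1 7.04% and 7.45%. Mir19a held 0.139% and 0.120%, lower in replicate 2, and Mir19b-1 held 0.0259% and 0.0355%, higher in replicate 2. The Wilson intervals of these shares cover counting error only. Whether they overlap between the libraries was not compared over all genes, so it is no result about the members. In the exact binomial test of CPM without a fold limit, 46.4% of all genes tested differed between the libraries.

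**Figure D2:**
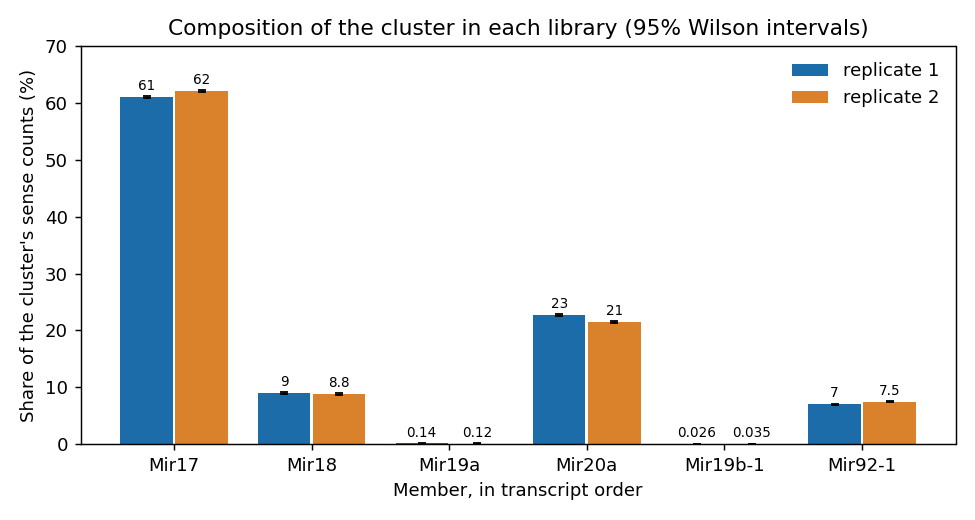
Percent of the cluster's sense counts held by each member in transcript order, as bars for replicates 1 and 2 with 95% Wilson intervals, which cover counting error only. Mir17 stands at 61.0% and 62.1%, and both miR-19 hairpins are below 0.2% in each library.

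By seed, the pair Mir17 and Mir20a held 83.7% ± 0.153 of the cluster's counts (SD, n = 2). The miR-18 seed held 8.91% ± 0.128, the miR-92 seed 7.25% ± 0.288 and the miR-19 seed, also with a pair of hairpins, 0.160% ± 0.00723. The members with the guide on the 5p arm together held 92.6% ± 0.281, and those with the guide on the 3p arm 7.41% ± 0.281. The GC content of the guides was 34.8% for miR-19a-3p, 39.1% for both miR-20a-5p and miR-19b-3p, 43.5% for miR-18a-5p, 47.8% for miR-17-5p and 57.1% for miR-92a-3p.

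Members differ in how far their sequence is shared, which was read from the RefSeq hairpins of mouse. The guides of Mir19b-1 and Mir92-1 each occur unchanged in 1 other hairpin, Mir19b-2 and Mir92-2 of the X cluster. The guides of Mir17, Mir18, Mir19a and Mir20a occur in no other hairpin of that table. miR-19a-3p comes within 1 substitution of the Mir19b-1 and Mir19b-2 hairpins, and miR-17-5p within 1 substitution of Mir106a. The hairpins that share a guide are printed with their mature arms in capitals, since they show how little separates the copies.
Mir19b-1: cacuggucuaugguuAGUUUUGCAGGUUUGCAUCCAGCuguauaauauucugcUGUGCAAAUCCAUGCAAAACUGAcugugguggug
Mir19b-2: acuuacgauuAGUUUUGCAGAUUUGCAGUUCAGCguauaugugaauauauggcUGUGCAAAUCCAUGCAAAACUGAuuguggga
Mir92-1: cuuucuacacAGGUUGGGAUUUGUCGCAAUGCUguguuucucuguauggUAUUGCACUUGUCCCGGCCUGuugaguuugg
Mir92-2: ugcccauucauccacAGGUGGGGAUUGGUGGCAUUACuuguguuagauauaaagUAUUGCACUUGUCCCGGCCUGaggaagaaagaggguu
The longest run common to the miR-19b hairpins is 25 nt and reaches 2 bases before the mature 3p arm. That common to the miR-92a hairpins is 22 nt and reaches 1 base before it. In both cases the run stops exactly at the annotated 3′ end of the arm. A read that is longer there by 1 base would tell the copies apart only if that base comes from the hairpin and was not added later.

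The counts of the 3p members are set beside this sharing as values only. Mir92-1, with a guide found unchanged elsewhere, had 15758 and 16376 counts, which is 272 times the count of Mir19b-1 in replicate 1 and 210 times in replicate 2. Mir19a, with no unchanged copy of its guide, had fewer counts than Mir92-1, which exceeded it 50.5 times and 62.3 times. How many miR-19 or miR-92 reads are among the reads matching several places was not tested.

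The related clusters on chromosomes X and 5 carry further copies of these seeds. The 15 genes of the 3 clusters were all listed, and the chromosome 14 cluster held 71.4% ± 0.482 of their counts (SD, n = 2). The chromosome 5 cluster held 27.6% ± 0.414 and the X cluster 1.03% ± 0.0684. Each of the 5 X genes with a counterpart on chromosome 14 was below it in both libraries. Mir17 exceeded Mir106a (196 and 172 CPM) by 6.87 ± 0.03 in log2(CPM + 1), Mir18 exceeded Mir18b (12.0 and 12.4 CPM) by 7.88 ± 0.18, and Mir20a exceeded Mir20b (116 and 112 CPM) by 6.08 ± 0.16. Mir92-1 exceeded Mir92-2 (87.3 and 89.6 CPM) by 4.83 ± 0.10, and Mir19b-1 exceeded Mir19b-2 (3.34 and 5.24 CPM) by 1.16 ± 0.20. Mir19b-2 had only 20 and 35 counts. Mir92-1 and Mir92-2 hold the same guide, as do Mir19b-1 and Mir19b-2, and a read matching both copies is counted for neither. How far this shifts these differences was not tested. Per base of hairpin and without the added 1 CPM, the 5 differences were 7.79 for Mir18, 6.51 for Mir17, 5.67 for Mir20a, 5.03 for Mir92-1 and 1.30 for Mir19b-1. They therefore differ from the values above by more than the division by length, which matters most at low CPM.

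**Figure D3:**
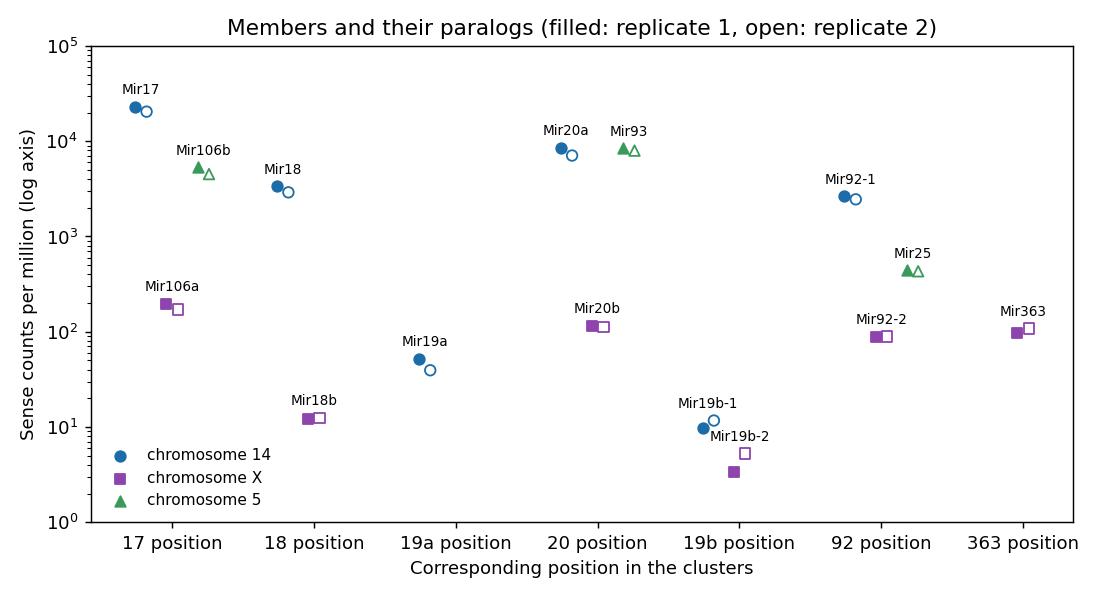
Sense CPM (log axis) of the members (circles) and of their counterparts on chromosomes X (squares) and 5 (triangles), by corresponding position, filled for replicate 1 and open for replicate 2, drawn slightly apart sideways. Mir20a and Mir93 overlap in level, and the miR-19b hairpins are the lowest on both chromosomes that carry them.

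The chromosome 5 genes came closer. Mir93 (8453 and 7966 CPM) and Mir20a did not differ beyond the pools, with a difference of -0.08 ± 0.13 in log2(CPM + 1) as Mir20a minus Mir93. Per base of hairpin Mir20a was lower, at -0.36 ± 0.13. Mir17 exceeded Mir106b (5316 and 4517 CPM) by 2.14 ± 0.05, and Mir92-1 exceeded Mir25 (441 and 431 CPM) by 2.54 ± 0.05.

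Seed composition differed between the clusters by more than the spread of the pools. The miR-17 seed held 83.7% ± 0.153 of counts on chromosome 14, 58.9% ± 2.95 on X and 96.8% ± 0.164 on chromosome 5. The miR-92 seed held 7.25% ± 0.288 on chromosome 14, 37.8% ± 2.57 on X, where Mir363 (96.5 and 108 CPM) adds to Mir92-2, and 3.22% ± 0.164 on chromosome 5. The miR-19 seed held 0.160% ± 0.00723 on chromosome 14 and 0.851% ± 0.280 on X. The shares of all the clusters come from the same 2 libraries, which are too few for a test, so these differences are given without one. Mir19b-2 had the lowest count of the 6 X genes in each library, as Mir19b-1 had on chromosome 14. These are not independent observations. Both hairpins hold the same guide, and a read matching both is counted for neither. How far this lowers them was not tested. Mir92-1 and Mir92-2 likewise hold the same guide, so the miR-92 shares on chromosomes 14 and X may leave reads out as well.

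**Figure D4:**
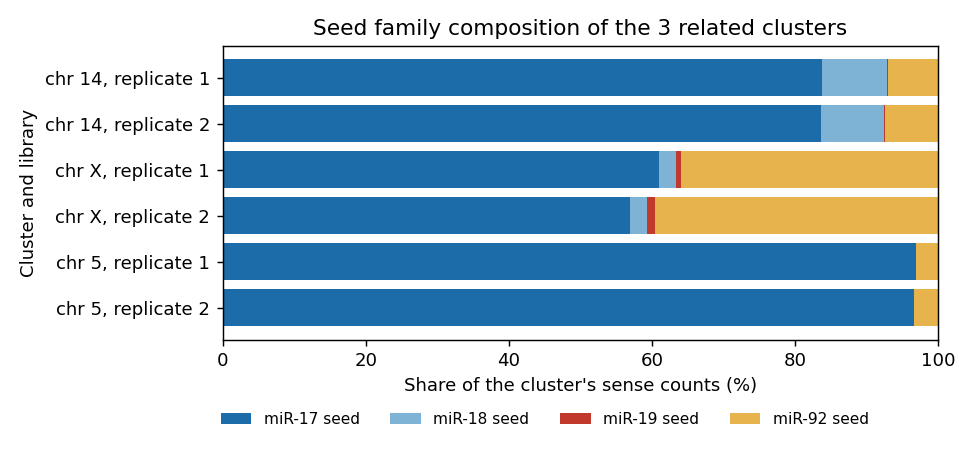
Percent of each cluster's sense counts held by each seed family, as 1 stacked bar per cluster and library. The miR-92 seed takes 7.04% and 7.45% on chromosome 14 against 36.0% and 39.6% on chromosome X, and the miR-19 seed is hard to see on either. Reads matching several places are in no bar.

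Over all listed genes with a given seed in the RefSeq table, the cluster held most of the counts assigned to a gene. Reads of miR-19b-3p or miR-92a-3p that match several places belong to no gene. The miR-19 and miR-92 values may therefore leave reads out. For the miR-17 seed the cluster held 68.6% ± 0.473 (SD, n = 2) of the counts of 7 listed genes, of which Mir6383 had none. For the miR-18 seed it held 99.6% ± 0.0495 over 2 genes, and for the miR-19 seed 92.8% ± 2.96 over 3 genes. For the miR-92 seed it held 72.7% ± 1.02 over 7 genes, which include Mir92b (169 ± 4.49 CPM), Mir32 (156 ± 3.45 CPM) and Mir367, with no counts. As shares of the whole library, the miR-17 seed had 4.28% ± 0.361, the miR-92 seed 0.349% ± 0.0124, the miR-18 seed 0.315% ± 0.0324 and the miR-19 seed 0.00607% ± 0.000622.

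The members were compared between the pools. By a two-sided exact binomial test over 466 genes, with an adjusted p below 0.05 and a 2-fold limit, 0 of the 6 members passed, against 5.79% of all genes tested, a background at which 0 of 6 is no result about the members. In the same binomial test 5 of 6 were at an unadjusted p below 0.05, as were 51.1% of all genes. edgeR's exact test passed 0 of 6 and 0.858% of all genes. The dispersion it used came from these 2 libraries themselves. Without the fold limit 5 members passed, all lower in replicate 2, where 46.4% of all genes passed and 33.3% passed as lower. Such a test compares the libraries against counting error only and says nothing of a condition.

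The log2 ratios of replicate 2 over replicate 1 (with 1 CPM added) were -0.16 for Mir17 (95% exact interval -0.17 to -0.15), -0.21 for Mir18 (-0.24 to -0.18), -0.27 for Mir20a (-0.28 to -0.25) and -0.10 for Mir92-1 (-0.13 to -0.07). The miR-19 hairpins had wide intervals, with -0.39 for Mir19a (-0.65 to -0.16) and 0.25 for Mir19b-1 (-0.24 to 0.79). The members' median was -0.18 beside -0.11 for all genes tested. The 9 paralogs had a median of -0.03, with 0 past the test and its fold limit.

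**Figure D5:**
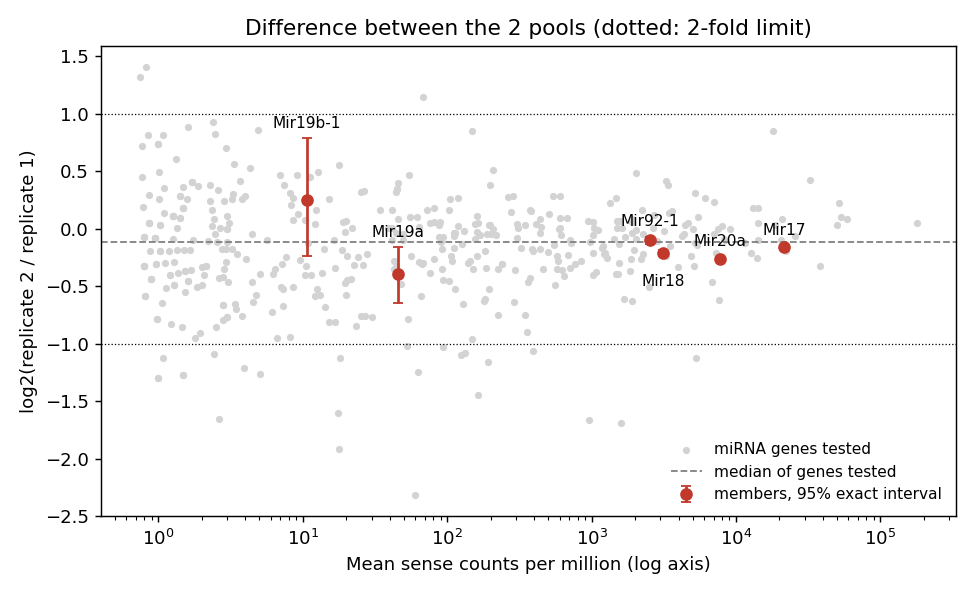
Log2 ratio of replicate 2 over replicate 1 against mean CPM (log axis) for the 466 genes tested (grey) and the 6 members (red, with 95% exact intervals computed on the counts without the added 1 CPM). All members lie within the dotted 2-fold limits, and the dashed line marks the median gene at -0.11.

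These directions depend on the scaling. edgeR's TMM and DESeq2's size factors each raised the median gene by 0.11, and the count of members lower in replicate 2 then went from 5 to 4 because Mir92-1 turned to 0.0549 with TMM and 0.0555 with DESeq2. With TMM and the exact binomial test, Mir17 stood at -0.0013 (adjusted p = 0.887), Mir19a at -0.24 (0.0839) and Mir19b-1 at 0.39 (0.179). Mir18 at -0.0555 (adjusted p = 0.000394, exact test) and Mir20a at -0.11 (8.31e-32) were still past the adjusted limit as lower, and Mir92-1 was past it as higher (0.00182). Markers of other cells are given in CPM, not in TMM scaling. For them, past the test means an adjusted p below 0.05 in the exact binomial test and the 2-fold limit. On the adjusted p alone, all of those named next except Mir192 were below 0.05, where 46.4% of all genes tested were. The liver gene Mir122 went from 2445 to 757 CPM. The erythroid genes Mir144, Mir451a and Mir486 together went from 727 to 345 CPM, with 3 of 3 lower past the test. The white blood cell genes Mir223, Mir150 and Mir155 went from 1374 to 1208 CPM, with 0 of 3 past the test. Of the striated muscle genes, Mir206 went from 106 to 192 CPM and Mir208b from 74.3 to 59.9 CPM, with 0 of 2 past it. The endothelial gene Mir126a stood at 26216 and 25041 CPM and was not past it. The glandular genes Mir215, Mir192 and Mir375 summed to 16069 and 27090 CPM, mostly Mir375 (12876 and 23221 CPM), with 0 of 3 past the test and Mir192 at a log2 ratio of 0.0071. Their part in the members' ratios was not tested.

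The SD between the pools was 7.71% of the mean for Mir17, 4.96% for Mir92-1, 10.4% for Mir18 and 13.0% for Mir20a, and it was 13.2% for Mir19b-1 and 19.6% for Mir19a. The coefficient of variation fitted by edgeR over genes with 10 or more summed counts was 21.9%. It leaves out counting noise, which the percentages of the members include, so it is not the same measure. Nearest in level to each member, by the difference of mean log2(CPM + 1) over the 2 libraries, were Mir130a (0.04 from Mir17), Mir98 (0.05 from Mir20a), Mir181d (0.02 from Mir18) and Mir145a (0.05 from Mir92-1). For the low members they were Mir218-2 (0.01 from Mir19a) and Mir26a-1 (0.02 from Mir19b-1). With 2 libraries of 1 group, likeness of level is all that can be read.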

How the data were processed

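The authors deposited whole-number counts of reads, in 1 file per library and 1 row per miRNA gene, on mm10 with annotation M4, per the file headers of the description texts. Which aligner, trimmer and counter they ran is not given in the sources used here. Columns are unnamed: in every gene row the leftmost count is the sum of the other columns, of which the left was taken as sense (used throughout) and the right as opposite strand. Lines that name no gene (46.4% and 45.5% of reads) stayed out of totals. Symbols came from GENCODE M21 for this assembly (1894 of 1973 identifiers matched), and RefSeq sequences (GRCm38.p6) matched all 6 members. A two-sided exact binomial test with Benjamini-Hochberg adjustment compared the libraries for genes with 10 or more summed counts, and a call needed an adjusted p below 0.05 and a 2-fold ratio. It was tested on simulated counts of the real genes with counting noise only. It called 83.7% of 98 genes given a log2 change of 1.5 and 99.0% of 100 given a change of 3. Of 276 unchanged genes it called 0.72%. The 20 highest genes, Mir17 among them, were given no change. The real pools differ beyond counting noise, so these rates need not hold for them. Named by rule were the members, the 9 paralogs, genes sharing a seed and those nearest in level. Members and lists were chosen with earlier results of these data known. Per the labels the pools are biological replicates. A count of 0 allows 3 counts, or 0.501 and 0.449 CPM. The tools were Python 3.11.15 with scipy 1.17.1, and edgeR 4.0.16 and DESeq2 1.42.0 in R 4.3.3. Scaling, the count and fold limits, the added CPM, strand, hairpin length, the denominator and single replicates were varied.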

Additional observations from a re-analysis of the deposited data

Results flagged for a closer look

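Reads matching several places, which the comparisons do not use, numbered 2946663 in replicate 1 and 3406967 in replicate 2 over the whole libraries. They carry no gene name, and how many come from the cluster was not tested.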

How the results depend on the processing

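The cluster's share of 3.51% became 1.84% over all reads of the table, by construction, and 3.29% to 3.74% without either replicate. The share of Mir17 within the cluster went from 61.6% to 65.1% per annotated length and was 61.0% to 62.1% without either replicate. The span from Mir17 to Mir19b-1, 10.86 in log2(CPM + 1), was 10.43 with pseudocount 5 and 10.65 to 11.06 without either replicate. Of all genes tested 27 were called between replicates, a number that changed to 16 when 100 summed counts were required, 216 without the fold limit, 13 with pseudocount 5 and 4 with edgeR's exact test, and 24 of the 27 were lower in replicate 2 against 16 of 22 with TMM or DESeq2 size factors. The 0 members called became 5 with no fold limit and stayed 0 under the other alternatives run. The ratio of Mir92-1 turned from -0.10 to 0.0549 with TMM and 0.0555 with DESeq2 size factors; no other member changed sign under any alternative run. The between-pool tests need both libraries, so leaving out a replicate was run only for shares and span. No paired analysis was possible because there is a single group. Depth limits Mir19b-1, with 58 and 78 counts.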
